A study of Mus musculus with 4 samples.

Results

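The genes described here are 9 immediate-early genes of neurons: the zinc finger factors Egr1, Egr2, Egr3 and Egr4, the nuclear receptors Nr4a1, Nr4a2 and Nr4a3, the transcription factor gene Npas4, and Arc. They were chosen by name, as 9 of the 21770 protein-coding genes with chromosome coordinates in RefSeq GRCm38.p6, and their surroundings were read in a deposited list of 33820 CTCF peaks. The samples were 2 CTCF immunoprecipitations (ChIP) and 2 inputs, all from WT Swiss-Webster mouse cortical neurons taken at embryonic day 16, grown for 13 days in vitro, with the treatment given as none. The 4 libraries thus share 1 genotype and 1 condition, and the list gives only peaks matched between both ChIP replicates, with a limit of about 0.05 on the rate of irreproducible matches (IDR). The list holds binding values and no expression, so the labelled cell type was not checked against markers.

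Immediate-early genes are switched on within minutes of synaptic activity, without new protein synthesis. Calcium entry activates CREB, SRF and MEF2 factors at their promoters and enhancers, and the induced factors then drive later genes. CTCF is a zinc finger protein that, with cohesin, forms the bases of chromatin loops and the borders of domains. The study it was profiled for concerns TOP2B, a topoisomerase that cuts both DNA strands and is known to act at CTCF sites and at activity-induced genes.

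Of these genes, 8 had a CTCF summit inside them or within 5 kb, while the count with one within 1 kb of an end was near the background. All 9 had at least 1 summit inside or within 100 kb, as did 87.8% of protein-coding genes. A summit lay inside or within 5 kb of 8 of the 9, against 60.2% of protein-coding genes and 59.1% of those in the members' length range, 2469 to 41370 bp, and Arc was the exception. The same 8 had one inside or within 2 kb, against 54.2%. In the gene lists described further on, the share with a summit inside or within 5 kb was above the members' 88.9%. It was 35 of 36 other activity-induced genes (97.2%), 20 of 21 upstream genes (95.2%) and 11 of 12 partner genes (91.7%). By this measure the members thus stood above protein-coding genes at large, but not above these lists, which were not matched for length. Counts inside or within 5 kb or 2 kb were not among the planned measures, which were ends, inside and 100 kb. The 2 kb distance was chosen after values were seen. Stricter peaks lowered the 5 kb count. Among peaks above the median strength, Egr3 and Nr4a1 no longer had a summit inside or within 5 kb. The share over protein-coding genes was not computed for that setting. A summit lay between the bounds of 6 (Egr2, Egr4, Nr4a1, Nr4a2, Nr4a3 and Npas4), against 44.6% of protein-coding genes and 38.5% of those in the length range. A summit lay within 1 kb of either end of 2, Nr4a1 and Nr4a3, a share of 22.2% against 29.2% of protein-coding genes, and the count depended on the window. No test was made of these shares, because the study gives 1 list for 1 condition.

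**Figure D1:**
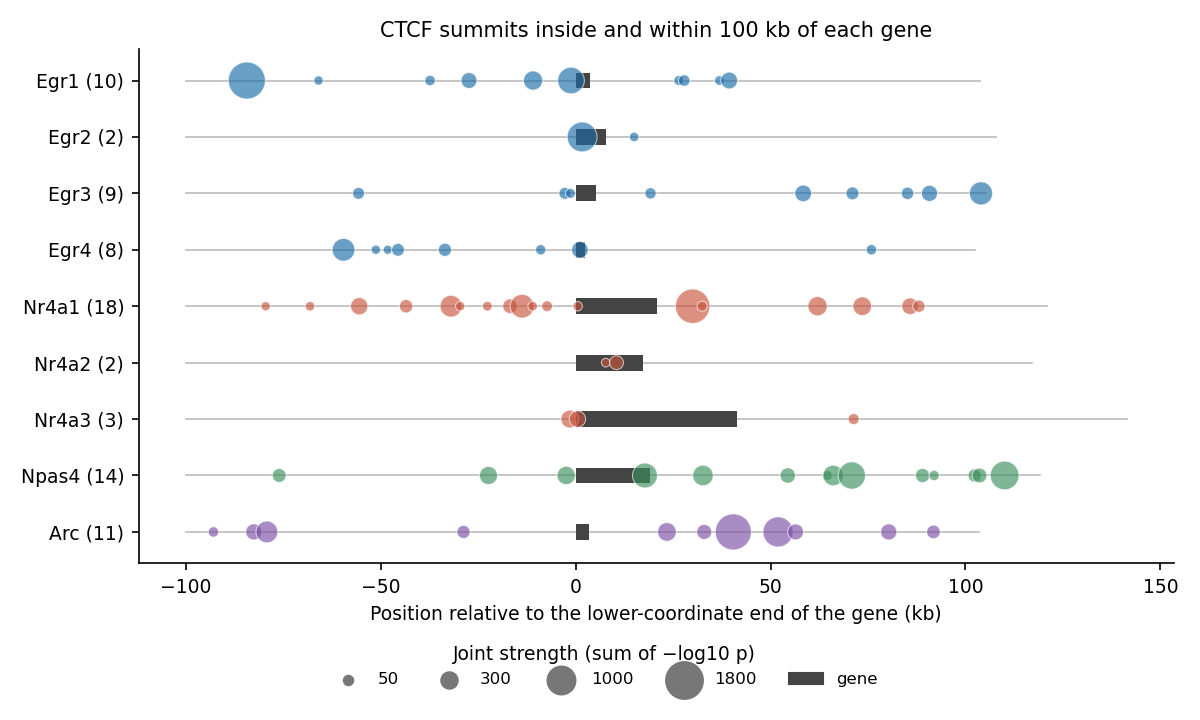
Each row is 1 gene, with the number of CTCF summits inside or within 100 kb in parentheses. The x axis gives the position in kb from the lower-coordinate end, circles are summits with an area that grows with joint strength, and dark bars are the genes. Nr4a1 has 18 summits and Egr2 and Nr4a2 have 2 each.

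In all, 77 different summits lay inside or within 100 kb of the 9 genes, none shared between members. The joint strength of a peak is the authors' deposited value, in which the −log10 p of one replicate is added to that of the other. It ran from 33.4 at a peak inside Nr4a2 to 1822 at a peak 84.3 kb below Egr1, with a median of 205 against 166 over the whole list. Of the 77, 46 (59.7%) lay above the list median, against 50% of all peaks by definition, and 31 stood at the cap of the IDR scale, against 24.8% of all peaks. Taken by replicate column, the members' medians were 55.7 in the first and 145 in the second, and those of the list 30.9 and 129. The pooled medians therefore stood above those of the list in both columns, a description of 77 peaks near 9 genes. This did not hold for each family. In the second column the medians of the Egr genes (84.0) and the Nr4a genes (91.6) lay below that of the list.

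The promoters show which starts lay under a peak. The RefSeq promoter table of GRCm38.p6 holds windows from 250 bases before to 50 bases after a start for 6 of the 9 genes, 10 windows in all, 5 of them for Egr2. A CTCF peak covered 3 of these windows whole, those of Nr4a3, Egr4 and the most upstream start of Egr2. In the table, 15.1% of 32851 windows were covered whole. The 3 covered windows follow, 5′ to 3′ along the gene, and show the sequence around starts that lay within a CTCF peak. Capitals mark matches, on either strand, to the motifs searched: the CTCF core (CC, any 3 bases, AG, any 2 bases, GGC), the cAMP response element TGACGTCA and its TGACG core, the CArG box bound by SRF (CC, 6 bases of A or T, GG), the Egr site GCGNGGGCG and the Nr4a site AAAGGTCA. The TGACG search was added after the other motifs had been searched, and a full cAMP response element would contain it.
Nr4a3, chr4:48045055-48045354, plus strand: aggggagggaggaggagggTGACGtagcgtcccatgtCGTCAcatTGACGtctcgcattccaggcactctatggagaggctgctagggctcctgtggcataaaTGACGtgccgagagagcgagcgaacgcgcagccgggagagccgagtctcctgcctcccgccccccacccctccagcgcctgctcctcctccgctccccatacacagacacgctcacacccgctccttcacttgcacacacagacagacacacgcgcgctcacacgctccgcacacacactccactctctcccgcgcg
Egr4, chr6:85513540-85513839, minus strand: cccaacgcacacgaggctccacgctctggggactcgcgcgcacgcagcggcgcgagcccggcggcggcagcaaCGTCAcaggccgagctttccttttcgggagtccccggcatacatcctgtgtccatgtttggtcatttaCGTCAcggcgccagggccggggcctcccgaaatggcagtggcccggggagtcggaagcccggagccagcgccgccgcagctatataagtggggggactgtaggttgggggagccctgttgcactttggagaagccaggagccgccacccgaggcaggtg
Egr2, chr10:67535249-67535548, plus strand: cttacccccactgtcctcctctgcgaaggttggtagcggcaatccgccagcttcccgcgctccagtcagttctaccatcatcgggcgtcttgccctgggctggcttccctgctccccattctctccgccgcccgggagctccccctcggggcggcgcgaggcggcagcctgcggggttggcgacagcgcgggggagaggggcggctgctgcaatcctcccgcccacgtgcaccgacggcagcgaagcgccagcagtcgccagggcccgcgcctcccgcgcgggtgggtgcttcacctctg
None of these 3 windows held the CTCF core, which was found in 22.5% of all windows covered by a peak and in 6.14% of the others. The joint summits lay outside all 3 windows, 238 bp from the Nr4a3 start, 1365 bp from that of Egr4 and 639 bp from that of Egr2. Sequence under the joint summits was not read. A match is a description of the letters only, and no match says only that these letters were not in the window. The Nr4a3 window held 4 TGACG matches and that of Egr4 held 2, while that of Egr2 held no match to any motif.

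The next 4 windows belong to starts with no peak over them, and are shown beside the covered ones for a later Egr2 start, the other Nr4a genes and Npas4.
Egr2, chr10:67537619-67537918, plus strand: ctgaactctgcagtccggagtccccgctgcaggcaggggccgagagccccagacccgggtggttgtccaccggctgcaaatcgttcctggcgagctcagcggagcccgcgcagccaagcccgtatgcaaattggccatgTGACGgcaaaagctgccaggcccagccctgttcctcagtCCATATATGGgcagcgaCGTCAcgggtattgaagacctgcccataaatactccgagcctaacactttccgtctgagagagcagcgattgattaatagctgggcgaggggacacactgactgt
Nr4a1, chr15:101266596-101266895, plus strand: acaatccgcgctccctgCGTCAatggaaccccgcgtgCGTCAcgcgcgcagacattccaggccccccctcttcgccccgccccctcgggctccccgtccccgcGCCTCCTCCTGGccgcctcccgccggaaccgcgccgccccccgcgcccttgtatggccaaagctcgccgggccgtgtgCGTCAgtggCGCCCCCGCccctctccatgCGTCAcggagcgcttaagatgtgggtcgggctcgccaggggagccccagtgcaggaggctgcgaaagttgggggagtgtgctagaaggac
Nr4a2, chr2:57123954-57124253, minus strand: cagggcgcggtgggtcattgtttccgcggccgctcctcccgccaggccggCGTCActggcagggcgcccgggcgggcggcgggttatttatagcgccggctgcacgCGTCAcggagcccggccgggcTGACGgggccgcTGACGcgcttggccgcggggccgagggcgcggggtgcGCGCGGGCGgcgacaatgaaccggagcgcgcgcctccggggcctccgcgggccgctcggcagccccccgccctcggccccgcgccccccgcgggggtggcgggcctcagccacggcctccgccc
Npas4, chr19:4989922-4990221, minus strand: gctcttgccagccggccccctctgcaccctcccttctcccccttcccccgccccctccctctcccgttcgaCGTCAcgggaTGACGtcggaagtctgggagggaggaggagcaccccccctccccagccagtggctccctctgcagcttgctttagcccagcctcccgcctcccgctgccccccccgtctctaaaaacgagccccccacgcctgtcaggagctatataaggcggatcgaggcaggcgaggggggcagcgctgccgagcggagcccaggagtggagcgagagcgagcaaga
The later Egr2 window held a CArG box between 2 TGACG matches, and so differed from the peak-covered upstream Egr2 window. CArG boxes were in 1.63% of all windows and TGACG in 20.8%. The Nr4a1 window was the single member window with a CTCF core, 12.4 kb from its nearest summit, and it also held 1 Egr site and 4 TGACG matches. The Nr4a2 window likewise held 1 Egr site and 4 TGACG matches, and the Npas4 window 2 TGACG matches. Egr sites were in 5.55% of all windows. The Nr4a site was in no member window and in 1.51% of all, and the full cAMP response element in no member window and in 1.79% of all.

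Among the Egr genes, the strongest summit in or next to a gene was at Egr2, a factor needed for hindbrain segments and for myelination by Schwann cells. Egr2 (chromosome 10, 67534469 to 67542188, mm10) held a peak from 67534949 to 67536789 with a joint strength of 1160, higher than 98.6% of the list. Its values were 589 in the first column and 571 in the second, the columns standing for the replicates. The first column was the higher one here, as in 9.26% of all peaks, and the replicate summits lay 2 bp apart. This summit stood 1669 bp inside the lower end of Egr2, 639 bp past the most upstream start in the table and 1731 to 1792 bp before the 3 latest starts.

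Only 1 other summit lay within 100 kb of Egr2, 7289 bp above it and 522 bp from an end of Ado, a thiol dioxygenase gene. It was weak, with a joint strength of 49.1 and column values of 26.2 and 22.9. Egr2 thus had a strong summit in its own bounds and almost no others near it, with 1 other protein-coding gene in reach of 100 kb.

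Egr1, a factor widely used as a marker of neuronal activity, had a strong peak over its lower end. The peak at Egr1 (chromosome 18, 34861207 to 34864956) ran from 34859627 to 34862512, so it covered that end, while its summit lay 1176 bp below it. Its joint strength was 907, with 355 in the first column and 552 in the second, and the replicate summits lay 28 bp apart. The peak was 2886 bp wide, wider than 98.5% of the list. The summit fell just outside the 1 kb window, which is why Egr1 is not among the genes with an end summit.

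Around Egr1 most summits below it lay inside Kdm3b, a histone H3K9 demethylase gene, or at its end. The strongest summit within 100 kb of Egr1 was 135 bp from the end of Kdm3b, with a joint strength of 1822 and column values of 943 and 879. It was the strongest of the 77. Inside Kdm3b were 3 summits, with joint strengths of 46.7, 78.9 and 277, and 1 of 436 lay 10914 bp below Egr1. Above Egr1 there were 4 summits, from 22714 to 35642 bp away, with joint strengths from 56.2 to 318.

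Egr3, which is needed for muscle spindles, had 2 neighbouring summits of low joint strength just below its lower end and none inside. At Egr3 (chromosome 14, 70077317 to 70082613) these lay 1316 bp away, with a joint strength of 62.1 (27.7 and 34.4), and 2741 bp away, with 124 (67.4 and 56.4). Both were below the list median of joint strength and that of the second column, 129. In the first column the farther one, at 67.4, stood above the list median of 30.9, so the columns differed on it. The strong summits near Egr3 were far from it: 669 at 98688 bp, 833 bp from an end of Sorbs3, and 313 at 53088 bp inside Bin3. Pdlim2, a gene for a cytoskeletal adaptor, took 2 more, of 140 and 287.

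Egr4 was the least settled of the family, because 1 wide peak covered the whole gene. The peak ran from 85510169 to 85514128 on chromosome 6 and Egr4 from 85511121 to 85513589, so the 3960 bp peak, wider than 99.8% of the list, was longer than the gene. Its joint strength was 306, with only 37.5 in the first column and 269 in the second. The summits of the replicates lay 2936 bp apart. That of the first column was 179 bp above the upper end, which is the start, and that of the second at −289 bp, below the lower end. The joint summit lay between them, 1103 bp from the lower end, and so counted as inside and not at an end.

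The other 7 summits near Egr4 gathered below it, 6 on that side and 1 above. The strongest, with a joint strength of 640 (255 and 384), lay 59523 bp away, 93 bp from an end of Cct7, a chaperonin subunit gene, and 389 bp from one of Pradc1. The Pradc1 promoter window, which that peak covered, held 1 CTCF core. The nearest, 8952 bp below Egr4 and 825 bp from the end of the F-box protein gene Fbxo41, was weak at 74.7.

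**Figure D2:**
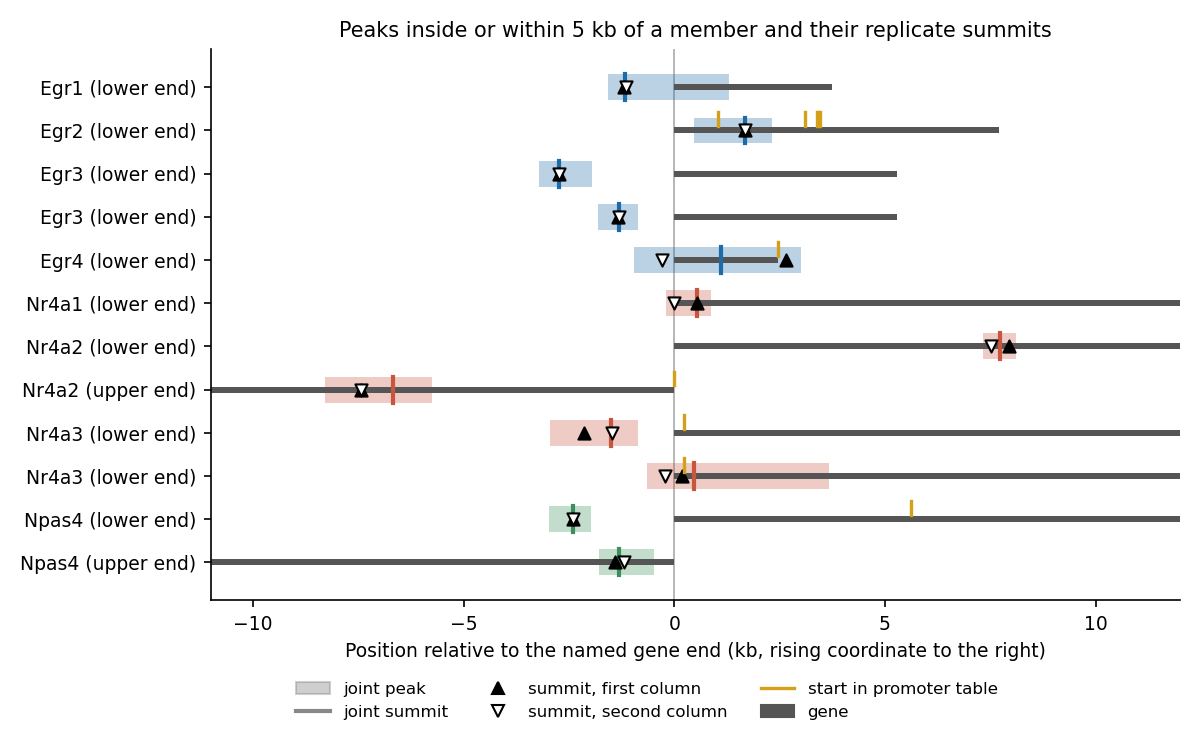
Each row is 1 peak inside or within 5 kb of a member, drawn in kb from the gene end named in the row, with rising coordinate to the right. Shaded bars are the joint peaks, coloured lines the joint summits, filled and open triangles the summits of the first and second replicate columns, and yellow ticks the starts in the promoter table. The replicate summits are within 32 bp of each other at Egr1, Egr2 and Egr3 and lie on opposite sides of Egr4.

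The Nr4a receptors, orphan nuclear receptors whose activity follows their amount rather than a ligand, differed among themselves even more. Nr4a1 had 18 summits inside or within 100 kb, more than 98.5% of protein-coding genes, Nr4a2 had 2 and Nr4a3 had 3. The median of all protein-coding genes was 6, with quartiles of 3 and 9. The Egr genes had 10, 2, 9 and 8 in the order Egr1 to Egr4. Each family thus held a member with 2 summits beside one with 10 or more.

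At Nr4a1 (chromosome 15, 101253902 to 101274795), a gene also known for roles in T cells and metabolism, the end summit was weak. It lay 541 bp inside the lower end with a joint strength of 50.8 (28.8 and 22.0), lower than all but 9.77% of the list. The replicate summits were 561 bp apart. The start in the promoter table lies 12.4 kb further in, so this summit is at the outer bound of the annotation and not at that start. The peak no longer counted at an IDR of 0.01 or above the median strength.

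The strong summits of the Nr4a1 region lay outside the gene on both sides. Above it, 9118 bp away and 388 bp from the end of Atg101, an autophagy initiation gene, stood a summit of 1564 (721 and 843). Below it, 13737 bp away in intergenic sequence, stood one of 707 (305 and 402) in a peak of 2903 bp whose replicate summits were 1677 bp apart. Next to that peak lay one of 3115 bp with a strength of 220. A further summit of 584 lay 31970 bp below, in or within 1 kb of a gene of a kind other than protein-coding. The other 13 summits outside Nr4a1 ran from 46.2 to 442, and 4 of them lay in the activin receptor gene Acvr1b or at its end.

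Nr4a2, which midbrain dopamine neurons need, was nearly alone with its peaks. Both of its summits lay inside Nr4a2 (chromosome 2, 57106830 to 57124003), with joint strengths of 197 (107 and 90.7) and 33.4 (13.4 and 20.0). No other summit lay within 100 kb, and the gene's start had no peak, with the nearest summit 6688 bp into the gene. For the stronger peak, from 57115714 to 57118263, the joint summit stood 743 bp from the nearer of the replicate summits, although those were 17 bp apart. When only peaks over the second column's median were kept, Nr4a2 had no summit within 100 kb, and the nearest was 192271 bp away.

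Nr4a3 had 2 adjacent peaks at its lower end, where its start lies. The first, from 48042122 to 48044227 on chromosome 4, had its summit 1498 bp below Nr4a3 and a joint strength of 363 (139 and 224). The second, from 48044425 to 48048762, had its summit 465 bp inside the end and a strength of 298 (165 and 133). At 4338 bp it was wider than 99.9% of the list. Its summit lay 238 bp past the start in the table, the closest among the 6 genes with windows, and the replicate summits stood 180 bp inside and 231 bp below the lower end. The remaining summit, of 97.7, was 29955 bp above the gene, so both peaks of Nr4a3 above the list median lay at or just below its lower end.

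**Figure D3:**
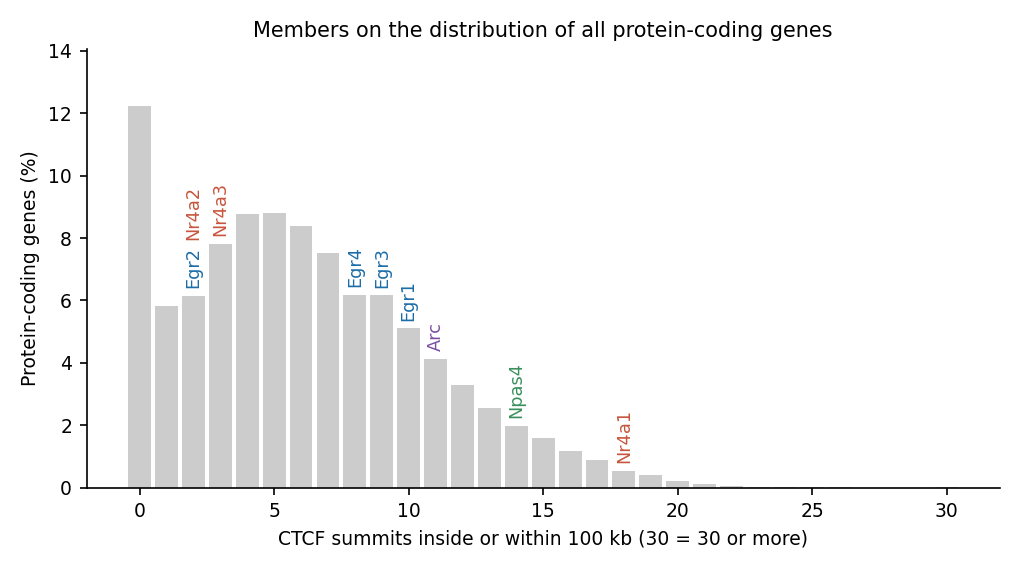
Grey bars give the percentage of 21770 protein-coding genes (y axis) by the number of CTCF summits inside or within 100 kb (x axis), and names mark the bar of each member. Egr2, Nr4a2 and Nr4a3 stand at 2, 2 and 3 and Nr4a1 at 18, against a median of 6.

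Npas4, a factor induced by calcium entry that adjusts inhibitory synapses, sat in a region rich in peaks. It had 14 summits inside or within 100 kb, more than 92.9% of protein-coding genes, and 14 other protein-coding genes reached into that range, against a median of 4. The bounds of Npas4 (chromosome 19, 4984353 to 5003439) run 13.5 kb past the start in the promoter table, on the upstream side. The summit counted as inside, of 786 (153 and 633), lay in that stretch, 1300 bp from the upper bound. Below the gene stood a summit of 393 (51.6 and 341) at 2408 bp. The start itself had no peak, and lay 8026 bp from the nearest summit.

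Further from Npas4 the summits were strong at several neighbours. The strongest, of 1064 (412 and 652), lay 90961 bp above it in Cnih2, an AMPA receptor auxiliary subunit gene. One of 956 lay 51765 bp above in Rin1, a Ras effector gene, and one of 508 lay 13585 bp above in no annotated gene, in a peak of 3494 bp with replicate summits 2053 bp apart. On the other side, a summit of 379 lay 138 bp from the end of Mrpl11, a mitochondrial ribosomal protein gene. In all, 12 of the 14 stood above the list median.

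Arc, whose protein forms virus-like capsids and drives AMPA receptor endocytosis, was the one member with no summit in or near it. At Arc (chromosome 15, 74669081 to 74672570) the nearest summit was 19936 bp above the gene, farther than for 74.2% of protein-coding genes, and the nearest below was 28746 bp away. The nearer had a joint strength of 412 (38.1 and 374) and the other 167 (23.9 and 143). Among protein-coding genes of 0.5 to 2 times the length of Arc, 21.7% had a summit inside, so a short gene without one is common.

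Beyond that gap the Arc region held strong summits. There were 11 inside 100 kb, 10 of them above the list median, and 11 other protein-coding genes reached into the range. One of 1732 (621 and 1111) lay 36961 bp above Arc and 209 bp from the end of Jrk, and one of 1184 (511 and 673) lay 48432 bp above and 232 bp from the end of Them6. Below Arc the strongest, of 584 (95.2 and 488), lay 79192 bp away at the end of Adgrb1, an adhesion receptor gene. The other summits below Arc were 76.6, 167 and 285, so the summits over 1000 were all on the upper side.

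Set side by side, the strongest summit of 6 members lay over 5 kb away from the gene, and for 5 of these it was within 1 kb of an end of another protein-coding gene. These were Egr1 at Kdm3b, Egr3 at Sorbs3, Egr4 at Cct7, Nr4a1 at Atg101 and Arc at Jrk. Npas4 was the sixth, with its strongest summit inside Cnih2. The place of the strongest summit was not computed over all protein-coding genes, so these counts have no background beside them. Only Egr2, Nr4a2 and Nr4a3 had their strongest summit inside or within 5 kb, and these were the members with 2 or 3 summits in all. Summits above 1000 were 6 of the 77, near 5 members, against 2.14% of the list.

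The members with the fewest summits had the fewest genes near them. Egr2 and Nr4a3 had 1 other protein-coding gene within 100 kb and Nr4a2 had 2, while Egr1 and Nr4a1 had 5, Egr3 and Egr4 6, Arc 11 and Npas4 14. Among protein-coding genes with a like number of neighbours, within 2 of the member's, the median count of summits was 4 for Egr2, Nr4a2 and Nr4a3, 6 for Egr1, Egr3, Egr4 and Nr4a1, 9 for Arc and 11 for Npas4. Against these, Nr4a1 with 18 stood above the upper quartile of 9, Npas4 with 14 above that of 13, and Egr1 with 10 above that of 9. Nr4a2 at 2 and Egr2 at 2 lay at the lower quartile of 2. The part of gene density in these counts was not tested.

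The families differed in the strength of the summits around them. The 29 summits of the Egr genes had a median joint strength of 140 and 12 (41.4%) lay above the list median, and the 23 of the Nr4a genes had a median of 176 with 12 above (52.2%). Around Npas4 the median of 14 was 317 with 12 above (85.7%), and around Arc the median of 11 was 285 with 10 above (90.9%). The order was the same in each column, with Npas4 highest at 76.6 and 245, Arc next at 68.1 and 209, then Nr4a at 49.3 and 91.6 and Egr at 36.6 and 84.0. Summits around 1 gene share their neighbourhood, so these are descriptions of 9 loci.

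By position, 21 of the 77 summits (27.3%) lay within 1 kb of an end of a protein-coding gene, against 18% of the list. Inside such genes lay 35.1%, against 43.6%, in or within 1 kb of genes of other kinds 5.19% against 8.51%, and in intergenic sequence 32.5% against 29.9%. Of the 21, 19 were at the ends of genes other than the members. The 77 were taken for lying inside or within 100 kb of protein-coding genes, and the list was not. No share was computed over peaks that near to any protein-coding gene, so these shares have no like background.

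**Figure D4:**
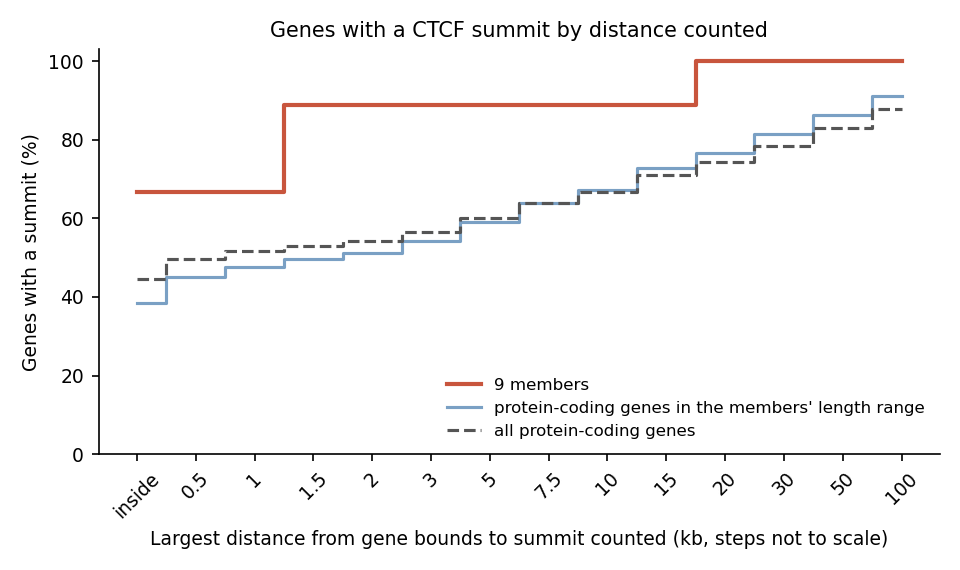
The y axis gives the percentage of genes with a summit inside or within the distance on the x axis (kb, steps not to scale), for the 9 members, for protein-coding genes in the members' length range and for all protein-coding genes. The members stand at 66.7% inside the bounds, step to 88.9% at 1.5 kb and reach 100% at 20 kb with Arc.

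How far from an end a summit may lie decided the count at ends. Just inside the 1 kb window were Nr4a3 at 465 bp and Nr4a1 at 541 bp. Just outside were Egr4 at 1103 bp, Egr1 at 1176 bp, Npas4 at 1300 bp, Egr3 at 1316 bp and Egr2 at 1669 bp. A window of 2 kb, chosen after these values were seen, took in 7 of 9 members against 38.1% of protein-coding genes. Counting any base of a peak within 1 kb also gave 7 of 9, against 36.1%, and left out Nr4a2 and Arc. At 5 kb the count was also 7, against 51.3%, and at 500 bp it was 1 (Nr4a3), against 20.4%. Read from the starts in the promoter table instead of the gene bounds, 2 of the 10 member starts (20%) had a summit within 1 kb. These were 1 of Egr2 and that of Nr4a3, and the share over all starts was 20.6%. Of the 10 starts 5 belonged to Egr2. By gene the count was 2 of the 6 members with a start in the table, and no share by gene was computed for the table. A peak covered at least 1 bound in 4 of the 9 members, Egr1, Egr4, Nr4a1 and Nr4a3, against 25.3% of protein-coding genes.

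Wide peaks, and peaks whose replicate summits lay apart, were a minority of the 77, but a larger share of them than of the list. Of the 77 peaks 9 were 2500 bp or wider, against 3.08% of the list, among them those at Egr1, Egr4, Nr4a2 and Nr4a3. The median distance between the replicate summits was 36 bp in member peaks and 29 bp in the list. They were over 500 bp apart in 10, against 6.83% of the list, and the joint summit was over 100 bp from both of them in 9, against 4.95%. Among the 12 peaks with a summit inside or within 5 kb of a member, these counts were 3 and 5. With the summits of the first column in place of the joint ones, 3 members had one at an end (Egr4, Nr4a1 and Nr4a3), against 28.8% of protein-coding genes, and with those of the second the same 3 did, against 28.7%. By the first column's summits 5 members had one inside, against 44.8% of protein-coding genes, and by the second column's 3 did (Egr2, Nr4a2 and Npas4), against 44.6%.

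**Figure D5:**
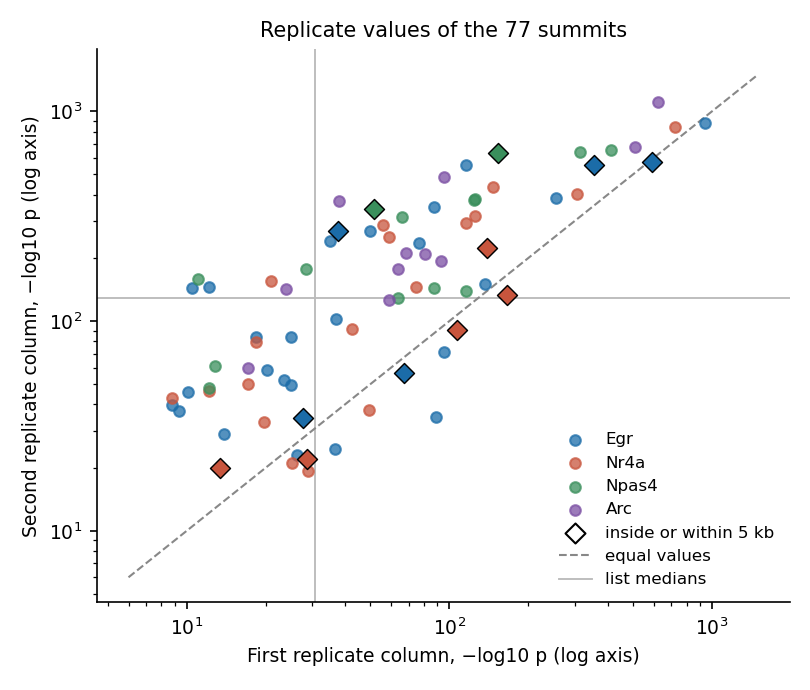
Each point is 1 of the 77 summits, with the −log10 p of the first replicate column on x and of the second on y (both log axes), coloured by gene family. Diamonds are the 12 summits inside or within 5 kb of a member, the dashed line marks equal values and grey lines the list medians of 30.9 and 129. Most points lie above the dashed line, while 5 of the 12 diamonds, 1 each of Egr2, Egr3, Nr4a1, Nr4a2 and Nr4a3, lie below it.

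The balance of the replicate columns varied between near and far summits. The first column was the higher one at 5 of the 12 summits inside or within 5 kb of a member and at 8 of the 65 others, against 9.26% of all peaks. Taking the 10 summits within 5 kb of an end of their own member, it was higher at 4, against 18.8% of peaks within 5 kb of any protein-coding gene end. All 5 belonged to Egr2, Egr3, Nr4a1, Nr4a2 and Nr4a3. None of the 14 summits at Npas4 or the 11 at Arc showed it. The file ties neither column to a labelled replicate and depth is unknown, so which library differs cannot be told.

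Other genes of the same response were counted in the same way. Of 36 further activity-induced genes, 25 had a summit within 1 kb of an end (69.4%), a share above that of the 9 members (22.2%) and of all protein-coding genes (29.2%). The strongest were at Sik1, a kinase that restrains CREB coactivators (1055), Gadd45g, a DNA damage and demethylation gene (1030), Vgf, a neuropeptide precursor gene (997), Crem, a CREB family gene (949) and Rasgrp1, a Ras exchange factor gene (814). By any base of the peak the shares were closer, 32 of 36 (88.9%) against 7 of 9 members (77.8%). A summit lay inside 25 of the 36 (69.4%), a share near the members' 66.7%, against 44.6% of protein-coding genes. The list came from general knowledge of the response and, like the members, was chosen with earlier results of these data known. Srf stood both in this list and in that of upstream genes.

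Of 21 genes that act upstream of the response, 9 had an end summit (42.9%, against 29.2% of protein-coding genes). The strongest were at Mapk3, the ERK kinase gene (405), Rps6ka5, a kinase of histone H3 and CREB (189), Creb1 (95.0), Atf1 (94.9) and Ep300, a histone acetyltransferase gene (73.9). Except for Mapk3 and Rps6ka5 these were below the list median, and above that median only 2 of 21 counted. Of 12 genes for proteins that bind Egr, Nr4a, Npas4 or Arc proteins, 2 had one (16.7%, against the same 29.2%): Sh3gl1, an endophilin gene whose product binds Arc (1839), and Nab2, an Egr corepressor gene (51.0). A summit lay inside 19 of the 21 and 11 of the 12, against 44.6% of protein-coding genes of any length. Among protein-coding genes of like length to a member, this share ran from 18.4% for Egr4 (2469 bp) to 58.2% for Nr4a3 (41370 bp). No share matched for length was computed for the activity-induced, upstream and partner lists. The part of gene length in their counts was not tested.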

How the data were processed

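The data are 1 joint peak list from 2 CTCF ChIP libraries of mouse cortical neurons, with 2 inputs. Cells were fixed for 10 minutes in 1% formaldehyde and DNA was sheared to 200 to 500 bp, per the labels' protocols. Per the submitters' processing notes, MACS2, BWA, SAMtools, Trimmomatic and FastQC were among the tools, and mm10 and GRCm38.p6 are the builds named. Sources used here give neither roles nor versions. The deposited file has 20 columns in the layout of the IDR program, so peaks were called per replicate and joined. The deposited −log10 p-values of both replicates and their sum are the authors' values and rise with depth, which is unknown, as is the use of inputs. Within 0.01, the sum matched in all 33820 rows. A score that the authors deposited as a scaled form of the IDR was not used. Other columns deposited by the authors hold positions in bp.

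Summits were placed at column 2 plus column 10, made 1-based, and compared with RefSeq GRCm38.p6 gene bounds. Genes whose table order showed scaffold coordinates were left out, leaving 49591 genes on chromosomes, 21770 of them protein-coding. The 5 peaks on contigs were left out of gene counts. Percentiles and shares are over all peaks or all protein-coding genes and describe this list; with 1 condition there was no test. Every member was described, with summits inside or near an end, nearest and strongest summits, and the genes holding them; per list, the 5 strongest end peaks. The members and lists were chosen with earlier results of these data known. Likeness across samples could not be computed from 1 list. The counting code was tested on simulated data. Promoter windows came from RefSeq (GRCm38.p6); Egr1, Egr3 and Arc were not matched. Alternatives were stricter peaks, each replicate column alone, any base of a peak, other windows and distances, and each replicate's summits. Python 3.11.15, numpy 2.4.6, pandas 2.3.3 and matplotlib 3.10.9 were used.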

Additional observations from a re-analysis of the deposited data

How the results depend on the processing

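Depth of each library is unknown, and the joint list cannot be rebuilt without a replicate, so leaving one out meant keeping peaks above the median of the other column. No paired analysis was possible because the list joins both ChIP replicates and holds no input values. Members with a summit at an end numbered 2, against 29.2% of protein-coding genes. The count was 1 among peaks above the median strength (14.9%), at an IDR of 0.01 (23.3%) and within 500 bp (20.4%), 1 to 1 with a column left out (13.1% and 21.1%), and 7 by any base (36.1%), 2 kb (38.1%) or 5 kb (51.3%). Members with a summit inside, 6 against 44.6%, numbered 3 by second-column summits (44.6%) and 4 to 7 under the other alternatives, the lowest being 4 (26.5%) without the first column and the highest 7 (50.5%) by any base. Summits within 100 kb numbered 46 above the median strength, 44 to 48 with a column left out, 47 within 50 kb and 121 within 200 kb, against 77. The members' median distance to a summit, 0 bp, ranged from 0 to 1176 bp with a column left out. The median strength of 205 was 353 above the median strength, 286 at an IDR of 0.01, 330 to 371 with a column left out, 213 by any base, 197 within 50 kb, 185 within 200 kb, and 55.7 or 145 in the first or second column alone. Of other activity-induced genes 25 became 16 above the median strength and 15 to 19 with a column left out. Of upstream activators 9 became 2 above the median strength, 1 to 6 with a column left out and 16 at 5 kb. Of partner genes 2 became 1 above the median strength, at an IDR of 0.01 and, 1 to 1, with a column left out, 5 by any base and 9 at 5 kb. For single members, 19 of 45 counts and 11 of 45 nearest distances moved. The rules differed: a distance was called moved at any change, a count only at a larger one. A fall from 9 to 6 summits at Egr3, without the second column, was not called moved. Among peaks above the median strength, Egr3 was 53088 bp from a summit, against 1316 bp, and Nr4a1 9118 bp, against 0 bp. Without the first column both distances were the same, and Nr4a2 was 192271 bp away, against 0 bp. Nr4a1 was 7313 bp away at an IDR of 0.01 and without the second column. In these settings the named members had no summit inside or within 5 kb, the measure by which 8 members counted with all peaks. The cause was not tested.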
